A study of Mus musculus with 58 samples.

Results

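PCGF3 and PCGF5, subunits that define one form of the Polycomb complex PRC1, were degraded in female mouse cells before and during the silencing of an X chromosome, and the RNA on chromatin was compared with that of untreated cells on day 3 of differentiation toward neural precursor cells (NPC day 3). The libraries were chosen by their labels: 2 libraries treated with the degrader dTAG-13 (PCGF35_dTAG, NPC d3, replicates 1 and 2) and 2 untreated libraries of the same line and day (PCGF35_ctrl, NPC d3, replicates 1 and 2), 4 of the 58 libraries of the series. The line, iXist-ChrX-Dom with FKBP12-tagged PCGF3 and PCGF5, is a hybrid of the strains 129S (Dom) and Cast. RNA from its X chromosomes can therefore be told apart at sequence differences. In all 4 cultures Xist stood under a doxycycline-inducible TetOn promoter on the Dom X and was induced with 1 ug/mL doxycycline while the cells differentiated without feeder cells in N2B27 medium. The treated cultures also received dTAG-13, at a concentration the labels give as 100 uM, from 12 hours before doxycycline. The line is 1 clone, so p-values measure the spread between cultures of that clone. The measure is the Dom share of a gene, the fraction of its allelic fragments that came from Dom, for 246 of the 908 X genes in the count files. A share near 0.5 means equal output of both X chromosomes, and a share near 0 means a silent Dom X.

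Xist is a long noncoding RNA that coats the chromosome it is transcribed from and silences it. Its B/C repeat region is bound by hnRNPK, which brings in PRC1 with PCGF3 or PCGF5. This complex places ubiquitin on histone H2A (H2AK119ub1), a mark that other PRC1 complexes and PRC2, the writer of H3K27me3, then bind. A separate route runs through SPEN, whose SPOC domain recruits the NCoR and HDAC3 corepressors. The dTAG system removes a tagged protein and leaves its mRNA in place, so RNA counts cannot check the degradation.

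Sequencing gave 16.43 M and 15.98 M fragments for the untreated libraries and 14.23 M and 11.83 M for the treated ones, with M for mega. Between 46.9% and 48.4% of fragments carried an allele. The median X gene had 127 to 170 allelic fragments per library. Pcgf3 had 86.3 and 85.4 counts per M (CPM) untreated and 82.2 and 86.8 CPM treated. Pcgf5 had 28.6 and 44.9 CPM untreated and 27.6 and 42.5 CPM treated, so its level followed the replicate number and not the treatment. Xist had 7086 and 8345 CPM untreated and 5988 and 6637 CPM treated, and the treated libraries were both lower (log2 fold change -0.27 ± 0.27, SE). This difference did not pass edgeR's quasi-likelihood test (adjusted p = 0.9999), and its part in the results on Dom share was not tested. Against uninduced ES cells, the untreated day 3 cultures had lost naive pluripotency RNA, with 13 of 15 genes lower (13.6% of all genes were), and gained formative RNA, with 7 of 13 core and formative genes higher (14.1% of all genes were). Of 11 tested neural progenitor genes 2 were higher, a share near that of all genes, and of that list's defining genes Pax6 was low, at 0.338 to 1.34 CPM, on this day, which the labels describe as mESC to NPC. Sox1 and Sox2 could not be judged: each lies wholly inside another gene on its own strand (Gm5607 and Sox2ot) and was listed at 0 in all 58 libraries, and the same held for Cbx6, Hoxa4, Hoxa5, Hoxa6 and Hoxd4. Fibroblast genes, which mark leftover feeder cells, summed to 473 and 427 CPM untreated and 439 and 472 CPM treated, most of it Fn1, and no gene of the 10 tested passed the test.

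With dTAG-13 the Dom X was more active on NPC day 3. No line with untagged PCGF3 and PCGF5 received dTAG-13, so effects of the compound and of the degradation cannot be told apart. The median Dom share over the 246 genes was 0.184 and 0.190 in the untreated libraries and 0.307 and 0.3333 in the treated ones. Means differed by 0.133, and replicates had a pooled SD of 0.0137 (n = 2 per group). With 2 against 2 libraries the exact permutation test (two-sided) cannot go below p = 0.3333, the value it returned. In the line's uninduced ES cells, treated or not, the medians lay between 0.509 and 0.512. The treated Dom X had therefore fallen below equal output, but less far than the untreated one. In RNA of a whole culture, partial expression in every cell and full expression in some cells cannot be told apart.

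**Figure D1:**
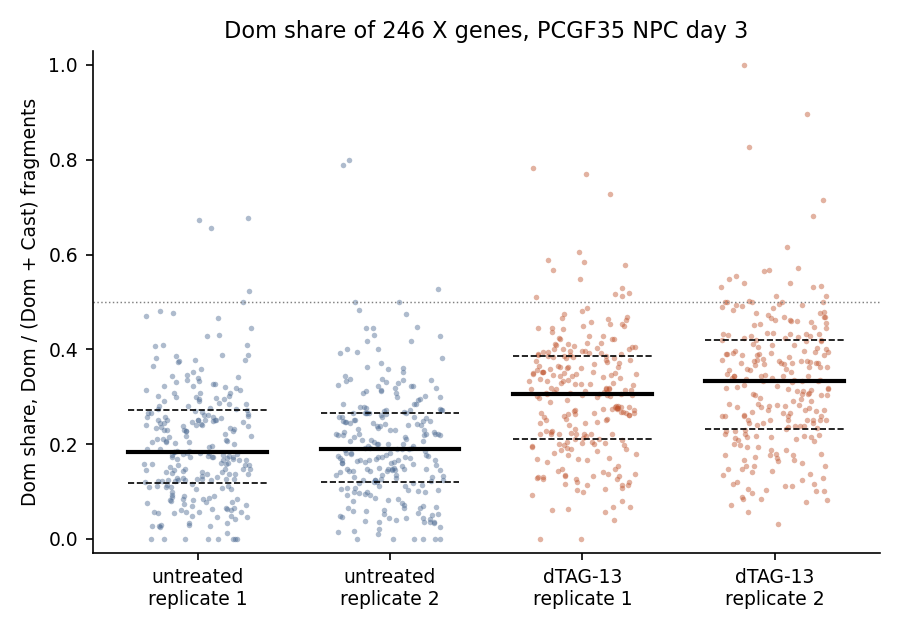
Dom share (y axis, from 0 to 1) of each of the 246 X genes (points) in the 4 NPC day 3 libraries (x axis). Solid lines are medians, dashed lines quartiles, and the dotted line is equal output. The treated medians of 0.307 and 0.3333 stand above the upper quartiles of both untreated libraries, 0.272 and 0.267.

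The shift moved the whole distribution of genes. Quartiles were 0.117 to 0.272 and 0.121 to 0.267 untreated and 0.211 to 0.385 and 0.233 to 0.421 treated. Genes with a share under 0.1 numbered 52 and 48 untreated and 10 and 9 treated. Genes with a share over 0.3 numbered 46 and 45 untreated and 131 and 142 treated. Summed over the 246 genes, Dom RNA amounted to 1430 and 1345 fragments per M untreated and 2462 and 2609 treated, compared with 5146 to 5791 in uninduced ES cells. Cast RNA amounted to 5386 and 5207 untreated and 5529 and 5451 treated. Dom RNA of the treated cultures was thus well above that of the untreated ones, and Cast RNA differed little.

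Gene by gene, the median change in mean Dom share was 0.108 (quartiles 0.0703 and 0.150). It was 0.0975 between the replicates 1 and 0.117 between the replicates 2. The mean share was higher with dTAG-13 in 237 genes and lower in 9. The values did not overlap between groups, with treated above untreated, in 204 genes, where 17.8% of all 12665 genes with allelic fragments did so. They did not overlap in the opposite direction in 1 gene, where 18.3% of all genes did so. This was Gabre, a GABA-A receptor subunit gene with shares of 0.250 and 0.200 untreated and 0.133 and 0.188 treated, from a mean of only 15.5 allelic fragments. The change was over 0.05 in 216 genes, over 0.1 in 139 and over 0.2 in 22.

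edgeR's quasi-likelihood test on the Dom and Cast counts could be applied to 239 of the 246 genes, those with a mean of at least 10 allelic fragments. The Dom share rose in 89 of them (37.2%) and fell in 0 at an adjusted p under 0.05. At an unadjusted p under 0.05 there were 176 genes in either direction. Over all 12666 genes tested, 0.758% rose and 0.0237% fell. Among autosomal genes 3 of 12242 rose and 3 fell. With the replicate number as a block, 112 X genes rose, including all 89. Without untreated replicate 1 the count was 59, and without treated replicate 2 it was 54. limma on the shares called 27 genes and on log2 odds 24, each in the same direction. The genes that passed had a median of 591 allelic fragments per library and the tested genes that did not pass had 78.8, while their median changes were 0.120 and 0.0987. Of the 108 genes with at least 200 allelic fragments, 76 passed.

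**Figure D2:**
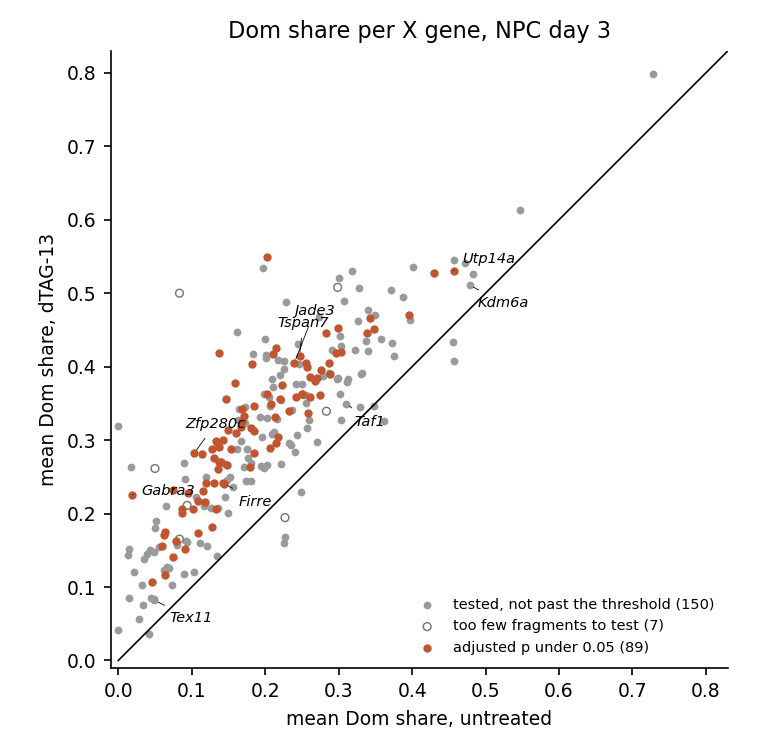
Mean Dom share per X gene in the untreated (x axis) and dTAG-13 treated (y axis) libraries of NPC day 3, with the line of equal shares. Filled colour marks the 89 genes past the threshold, grey the 150 tested genes that did not pass and open circles the 7 genes with too few fragments. Nearly all points lie above the line, at low and at high untreated shares.

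The 12 genes with the largest changes among those that passed, with non-overlapping groups and at least 50 allelic fragments, gained 0.166 to 0.222 in Dom share. Mtcp1, a gene of the TCL1 oncogene family, had shares of 0.202 and 0.161 untreated and 0.386 and 0.420 treated. F8, the gene of coagulation factor VIII, had 0.125 and 0.192 untreated and 0.363 and 0.392 treated. At the other end, of the 108 genes with at least 200 allelic fragments, the non-coding gene 4930519F16Rik had 0.0917 and 0.0870 untreated and 0.120 and 0.115 treated. Kdm6a, an H3K27 demethylase known to escape X inactivation, had 0.482 and 0.475 untreated and 0.520 and 0.502 treated. These were the genes at the ends of the ranking by change, and their promoters are shown because each end held 1 promoter rich in CG and 1 poor in it. The sequences are from RefSeq (GRCm38.p6), 250 bases before to 50 after the gene start, 5′ to 3′ on the gene's strand, with every CG in capitals.
Mtcp1, chrX:75416535-75416834, minus strand, 20 CG: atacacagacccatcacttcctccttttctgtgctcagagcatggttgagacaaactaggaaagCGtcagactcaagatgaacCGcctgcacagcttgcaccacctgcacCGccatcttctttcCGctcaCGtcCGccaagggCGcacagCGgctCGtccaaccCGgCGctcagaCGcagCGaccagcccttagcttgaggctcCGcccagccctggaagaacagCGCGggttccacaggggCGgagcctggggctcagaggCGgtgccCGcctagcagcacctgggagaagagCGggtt
F8, chrX:75379992-75380291, minus strand, 2 CG: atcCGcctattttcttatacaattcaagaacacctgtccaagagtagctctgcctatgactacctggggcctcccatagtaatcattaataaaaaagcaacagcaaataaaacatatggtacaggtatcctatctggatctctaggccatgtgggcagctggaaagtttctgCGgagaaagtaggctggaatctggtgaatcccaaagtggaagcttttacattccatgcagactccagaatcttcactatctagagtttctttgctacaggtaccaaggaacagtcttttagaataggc
4930519F16Rik, chrX:103256556-103256855, minus strand, 1 CG: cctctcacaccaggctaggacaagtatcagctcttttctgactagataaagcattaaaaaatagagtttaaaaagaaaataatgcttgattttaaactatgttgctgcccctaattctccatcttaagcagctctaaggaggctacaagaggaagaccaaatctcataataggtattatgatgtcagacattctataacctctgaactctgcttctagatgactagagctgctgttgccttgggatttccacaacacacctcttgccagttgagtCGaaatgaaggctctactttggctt
Kdm6a, chrX:18162325-18162624, plus strand, 21 CG: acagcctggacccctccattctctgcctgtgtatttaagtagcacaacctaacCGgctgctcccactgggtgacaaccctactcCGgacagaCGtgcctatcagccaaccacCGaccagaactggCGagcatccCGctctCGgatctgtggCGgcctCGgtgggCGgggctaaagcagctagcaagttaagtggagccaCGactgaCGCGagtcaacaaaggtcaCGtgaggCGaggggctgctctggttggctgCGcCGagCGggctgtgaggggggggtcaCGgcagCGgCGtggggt

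CG reads the same on both strands. At least 1 CG was present in 97.9% of the 192 X promoters of the set that matched within 1000 bases of the annotated start, and in 94.6% of all 32851 mouse promoters in the table. At least 10 were present in 78.1% and 43.5%. The median was 18 CG in the X promoters and 7 in all promoters. The change in Dom share did not follow this count: the median was 0.108 in the tertile with the fewest CG, 0.108 in the middle one and 0.105 in the tertile with the most. Across these 192 genes, which share libraries and are not independent, Pearson's r was -0.117 and Spearman's rho -0.062.

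Of the 12 genes, 7 lay between 72 and 76 Mb of the X, a stretch that holds 45 genes of the set. Its genes had a median change of 0.122, compared with 0.107 for the 201 genes elsewhere, and 19 of its 43 tested genes passed, compared with 70 of 196. The bounds of the stretch follow the named genes, and its median and count include those 7 genes. This comparison therefore cannot tell whether the stretch differs from the rest of the X. Mtcp1 (X, 75404846 to 75416543, mm10, minus strand) and F8 (X, 75172714 to 75380041, minus strand) are neighbours there, and Fundc2, a mitochondrial membrane protein gene (X, 75382398 to 75397158, plus strand), lies between them. The log2 change in the odds of a Dom fragment was 1.58 ± 0.29 (SE, edgeR adjusted p = 0.000496) for Mtcp1 and 1.71 ± 0.31 (adjusted p = 0.00212) for F8. Fundc2 had shares of 0.263 and 0.167 untreated and 0.363 and 0.488 treated. In the same stretch, Irak1, a kinase of Toll-like and interleukin-1 receptor signalling, had 0.127 and 0.167 untreated and 0.264 and 0.448 treated, so its treated replicates stood far apart. Plxna3, a semaphorin receptor, had 0.147 and 0.118 untreated and 0.274 and 0.322 treated.

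Gabra3, another GABA-A receptor subunit gene (X, 72432675 to 72656246), was nearly silent on the untreated Dom X, with shares of 0.0282 and 0.0101, and had 0.216 and 0.235 treated. Its counts were small: 2 and 1 Dom against 69 and 98 Cast fragments untreated, and 8 and 4 Dom against 29 and 13 Cast fragments treated. The 95% Wilson interval of the last share ran from 0.0956 to 0.473. The Cast count differed by -1.67 ± 0.50 (log2, SE) and did not pass the test, so both alleles entered its change in share. Zfp185, an actin-binding protein gene (X, 72987338 to 73031543), had 0.121 and 0.107 untreated and 0.281 and 0.280 treated, with replicates close together. Its Dom counts of 57 and 40 untreated and 151 and 128 treated rose (log2 fold change 1.86 ± 0.27, adjusted p = 0.00738).

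The other genes with the largest changes were spread along the chromosome. Upf3b, a factor of nonsense-mediated decay, had shares of 0.240 and 0.181 untreated and 0.414 and 0.419 treated. Zfp280c, a zinc finger gene, had 0.0986 and 0.108 untreated and 0.253 and 0.311 treated. The groups did not overlap in either gene, as the rule for naming these genes required. Slc9a7, a sodium and potassium proton exchanger, had 0.131 and 0.205 untreated and 0.317 and 0.368 treated. Tspan7, a tetraspanin of neurons, had 0.246 and 0.247 untreated and 0.396 and 0.432 treated (log2 odds 1.10 ± 0.13, adjusted p = 1.57e-08). Jade3, a subunit of a histone acetyltransferase complex, had 0.231 and 0.249 untreated and 0.377 and 0.434 treated (log2 odds 1.10 ± 0.12, adjusted p = 2.18e-08). Zfp280c, Slc9a7, Tspan7, Zfp185 and Jade3 passed under all 7 alternative edgeR fits run for single genes. By limma, on shares and on log2 odds alike, Tspan7, Jade3, Upf3b and Plxna3 passed, Zfp185 passed on shares alone (adjusted p = 0.0239, and 0.104 on log2 odds), and the others passed on neither scale, Zfp280c (0.0684 and 0.0808) and Slc9a7 (0.0734 and 0.0936) included. The other 7 genes lost the call under at least 1 edgeR fit, mostly with 1 library left out: F8 without untreated replicate 1 (1.34, edgeR adjusted p = 0.166) or either treated replicate (1.81, edgeR adjusted p = 0.0563, and 1.64, edgeR adjusted p = 0.0876), Mtcp1 without untreated replicate 2 (1.40, edgeR adjusted p = 0.0501), Upf3b without it (1.17, edgeR adjusted p = 0.124) and Irak1 without untreated replicate 1 (1.39, edgeR adjusted p = 0.272) or treated replicate 2 (1.07, edgeR adjusted p = 0.649). Fundc2 lost it without untreated replicate 2 (0.98, edgeR adjusted p = 0.854) or treated replicate 2 (1.04, edgeR adjusted p = 0.697). Gabra3 lost it without untreated replicate 2 (3.23, edgeR adjusted p = 0.246) or either treated replicate (4.00, edgeR adjusted p = 0.250, and 3.84, edgeR adjusted p = 0.071). Plxna3 lost it without either untreated replicate (1.65, edgeR adjusted p = 0.0602, and 1.30, edgeR adjusted p = 0.257) or treated replicate 2 (1.30, edgeR adjusted p = 0.273). The value beside each p is the log2 change in odds.

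**Figure D3:**
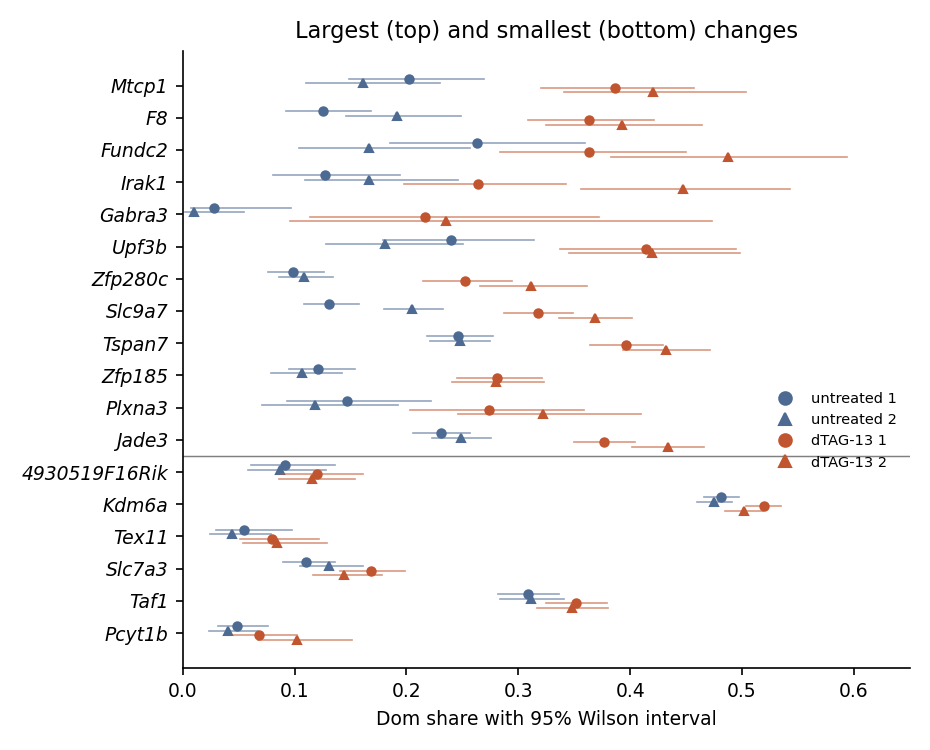
Dom share (x axis) with 95% Wilson interval of the 12 genes with the largest and the 6 genes with the smallest change, separated by the grey line. Circles are replicates 1 and triangles replicates 2, blue untreated and orange treated with dTAG-13. Intervals cover counting error only; the widest is that of Gabra3 in treated replicate 2 and the narrowest that of Kdm6a in untreated libraries.

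The 6 genes with the smallest changes among those with at least 200 allelic fragments gained 0.0282 to 0.0405, and none passed the test. Beside 4930519F16Rik and Kdm6a these were Tex11, a meiosis gene, with shares of 0.0546 and 0.0439 untreated and 0.0796 and 0.0841 treated, and Slc7a3, an amino acid transporter, with 0.110 and 0.130 untreated and 0.168 and 0.144 treated. Taf1, a subunit of the general transcription factor TFIID, had 0.308 and 0.311 untreated and 0.352 and 0.348 treated. Pcyt1b, an enzyme of phosphatidylcholine synthesis, had 0.0489 and 0.0401 untreated and 0.0682 and 0.102 treated. They differed among themselves in the untreated state, from nearly silent (Tex11, Pcyt1b) to nearly equal output (Kdm6a). In each of the 6 both treated values stood above both untreated values, as they did in 204 of the 246 genes. The log2 change in odds was 0.19 ± 0.07 for Kdm6a, with 3858 allelic fragments, and 0.92 ± 0.34 for Pcyt1b, with 302, so a like change in share was a larger change in odds in the nearly silent gene. The 4 of these 6 genes other than Kdm6a and Pcyt1b lay within 2.42 Mb of Xist, a limit set by Tex11 itself. How many other genes lie that near was not counted. Across the 246 genes the change in share had rho of 0.128 with distance from Xist.

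Genes with higher counts gave the most precise values. Pola1, the catalytic subunit of DNA polymerase alpha, had 9234 allelic fragments per library and shares of 0.189 and 0.179 untreated and 0.306 and 0.318 treated (log2 odds 1.00 ± 0.06, adjusted p = 1.65e-18). Eda, the ligand ectodysplasin, had 0.0727 and 0.0549 untreated and 0.178 and 0.172 treated (log2 odds 1.66 ± 0.12). Usp9x, a deubiquitinase, had 0.262 and 0.240 untreated and 0.351 and 0.375 treated. Outside the set of 246 genes, 4 of 27 further X genes on the same side of Xist rose: Rhox5, Usp26, Xlr3a and Il1rapl1. Xlr3a, a member of a family of near-identical copies whose counts are uncertain, had 0.114 and 0.0848 untreated and 0.310 and 0.425 treated. Genes beyond Xist are not compared by allele, since they lie outside the stretch of the X that the study analyses by allele.

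Over the set as a whole, the change in share lay mainly on the Dom allele. Dom counts rose in 23 of 239 genes and fell in 0 (0.197% of all 12666 genes rose), with a median log2 fold change of 0.95 over the 239 genes. Of these 23, 22 were among the 89, and the exception was Gm6938. All 89 had a Dom log2 fold change above 0, and 33 had a Cast log2 fold change below 0. Eda had 104 and 102 Dom fragments untreated and 316 and 325 treated (log2 fold change 1.98 ± 0.22, adjusted p = 0.00134). Fgf13, a factor that binds sodium channels, had 54 and 45 untreated and 140 and 154 treated (1.92 ± 0.24, adjusted p = 0.00258). Cast counts changed in 0 of the 239 genes and in 0% of all genes tested by edgeR (13 and 573 had an unadjusted p under 0.05), and their median log2 fold change was 0.04 over the 239. With the replicate block the counts were 90 genes for Dom and 1 for Cast in the X set. Over all 12666 genes the blocked test called Cast counts higher in 26 and lower in 69. Leaving out 1 library brought the Dom calls to between 0 (without untreated replicate 2) and 15 (without treated replicate 1), with 5 without untreated replicate 1 and 5 without treated replicate 2.

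Relative to its own share in uninduced ES cells of the same treatment, the median gene kept 38.6% of its Dom share untreated and 64.2% treated. Genes that kept under 25% numbered 62 untreated and 13 treated. Genes that kept over 75% numbered 12 untreated and 68 treated. Mtcp1 kept 36.9% untreated and 75.4% treated, and Gabra3 kept 2.69% and 38.8%. Tex11 kept 10.6% and 17.3%, and Pcyt1b 8.53% and 15.9%, so that silencing of these genes had gone far with dTAG-13 too. The order of genes was largely the same in both states: across the 246 genes, untreated and treated shares had Pearson's r of 0.857 and Spearman's rho of 0.844. The changes themselves agreed less between the pairs of replicates, with r of 0.125 and rho of 0.278, and both measures carry the counting error of the same libraries.

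By position, the medians differed little beside the spread among genes. In the 55 genes within 20 Mb of Xist the median change was 0.0814, and in the steps of 20 to 40, 40 to 60, 60 to 80 and 80 to 100 Mb it was 0.118, 0.107, 0.114 and 0.116 (65, 40, 17 and 69 genes). The genes nearest Xist also had the lowest untreated median, 0.127, compared with 0.182, 0.150, 0.211 and 0.256. In log2 odds the order changed, with medians of 0.93, 1.04, 1.08, 0.80 and 0.79, so the nearest genes no longer stood lowest. Across genes the change in share had rho of 0.128 with distance.

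**Figure D4:**
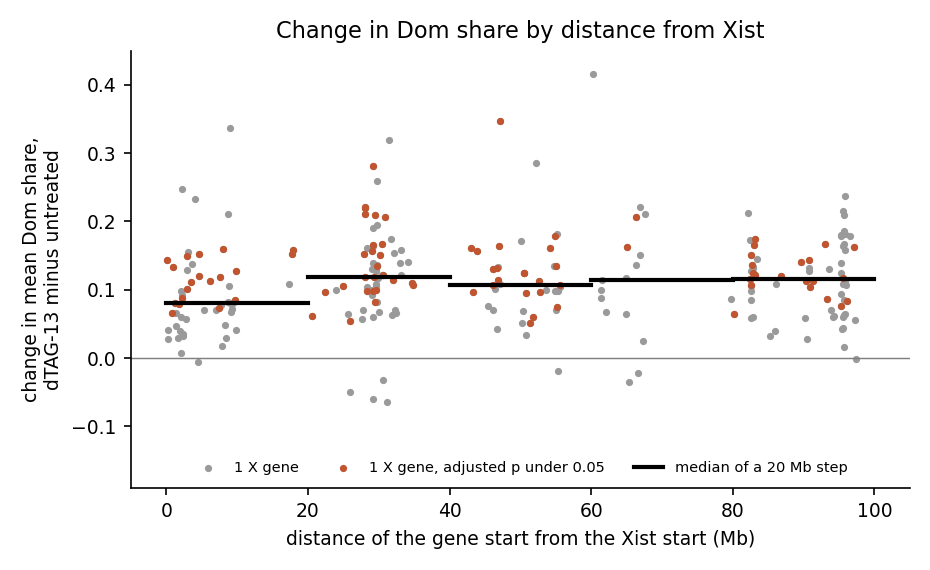
Change in mean Dom share, dTAG-13 minus untreated (y axis), against the distance of the gene start from the Xist start in Mb (x axis). Each point is 1 of the 246 genes, coloured where it passed the test. Bars are medians of 20 Mb steps, from 0.0814 nearest to Xist to 0.118 in the next step. The highest point, Tenm1, rests on a mean of 5 allelic fragments and was not tested.

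Level and pace of silencing were read from libraries outside the comparison. By tertile of expression per length in uninduced ES cells, the median change in share was 0.108, 0.112 and 0.106, and rho across genes was -0.0322. By tertile of Dom share on NPC day 3 in WT, the parental line with untagged PCGF3 and PCGF5, it was 0.0989 in the genes silenced furthest, 0.127 in the middle and 0.106 in the genes silenced least. The matching log2 odds medians were 1.17, 1.02 and 0.68, with rho of -0.467 across 239 genes, so genes silenced furthest in WT had larger changes in odds and not in share. WT had a median share of 0.185 ± 0.0100 (SD, n = 2), and untreated PCGF35 had 0.187 ± 0.00417.

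By function, the median Dom share of each list of X genes was higher with dTAG-13, and no list held a gene that passed the test as lower. Their counts stand beside 37.2% of the 239 genes and a median change of 0.108 over all 246. Of 21 chromatin genes 10 rose, with a median change of 0.0931. Bcor, a subunit of the PRC1 complex with PCGF1, had 0.266 and 0.268 untreated and 0.384 and 0.378 treated. Ogt, Hcfc1, Usp9x, Phf6, Hdac6, Hdac8, Jade3 and Rbmx rose too. Of the 19 signalling and pluripotency genes tested 11 rose, with a median of 0.107. Klhl13, an adaptor of a ubiquitin ligase, had 0.105 and 0.112 untreated and 0.169 and 0.179 treated. Gpc3, a cell surface proteoglycan, had 0.0602 and 0.0599 untreated and 0.141 and 0.170 treated. Nr0b1, a nuclear receptor of the naive state, went from a mean of 0.0428 to 0.151 and did not pass, with 61 allelic fragments.

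Of the 16 neural genes tested 7 rose, with a median change of 0.122. Dmd, the gene of dystrophin, had 0.0487 and 0.0429 untreated and 0.103 and 0.111 treated. Cask, a scaffold protein of synapses, had 0.200 and 0.215 untreated and 0.326 and 0.372 treated. Of 23 housekeeping and metabolic genes 11 rose, with a median of 0.0991. Hprt, of purine salvage, had 0.257 and 0.265 untreated and 0.396 and 0.376 treated. Lamp2, a lysosomal membrane protein, had 0.172 and 0.169 untreated and 0.327 and 0.339 treated. Slc25a5, the mitochondrial carrier of ADP and ATP, was an exception in direction, with means of 0.455 untreated and 0.433 treated that overlapped. Of 5 genes of the set known to escape X inactivation in the mouse 2 rose, with a median of 0.0714. Utp14a, a factor of ribosome assembly, had 0.466 and 0.448 untreated and 0.530 and 0.532 treated. Firre, a long noncoding RNA, had 0.142 and 0.147 untreated and 0.223 and 0.259 treated. Kdm6a, Ddx3x and Eif2s3x did not pass. Some genes, such as Cask, belong to 2 of these lists.

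The same treatment was compared across the days and cultures of the line. ES and NPC libraries differed both in cell state and in days of doxycycline and dTAG-13, and these cannot be told apart. Before Xist induction dTAG-13 made little difference to Dom share, with a median change of 0.0043 over the 246 genes. It was 0.0619 after 1 day of doxycycline in ES cells, 0.108 on NPC day 3 and 0.147 on NPC day 6. Xist RNA came from the Dom allele in nearly all allelic fragments of the day 3 and day 6 libraries, but treated replicate 1 of the ES cells had Cast Xist too, with a Dom share of Xist of 0.624 uninduced and 0.794 on ES day 1, compared with 0.998 and 0.9992 in treated replicate 2. Without that replicate the median changes were 0.00668 uninduced and 0.0568 on ES day 1. In log2 odds these medians were 0.03, 0.41, 0.92 and 1.77. In interaction tests with edgeR, the effect was larger on NPC day 3 than in uninduced ES cells in 56 X genes and smaller in 0 (0.466% of all 12666 genes were larger), and in 52 without treated ES replicate 1. It was larger than on ES day 1 in 9 X genes (0.079% of all genes), in 10 without treated ES replicate 1, and in 27 with the replicate block. It was smaller than on NPC day 6 in 27 X genes (0.221% of all genes) and larger in 0, and smaller in 39 with the block. All these tests compare log2 odds, in which a given change in share counts for more in a nearly silent gene. Among the 9 genes with a larger effect on NPC day 3 than on ES day 1 were Eda, Tab3, Vbp1, Tspan7, Shroom4, Enox2, Klhl13 and Pola1. In Eda the mean share was 0.235 untreated and 0.318 treated on ES day 1, and 0.0638 and 0.175 on NPC day 3 (difference of effects 1.06 ± 0.14 in log2 odds, adjusted p = 1.31e-05). In Pola1 it was 0.368 and 0.445 on ES day 1, and 0.184 and 0.312 on NPC day 3 (0.54 ± 0.08, adjusted p = 4.62e-05).

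Between NPC day 3 and day 6 untreated silencing went on while treated shares fell less. Rbm3, a cold-inducible RNA-binding protein, had mean shares of 0.395 untreated and 0.471 treated on NPC day 3 and 0.183 and 0.440 on NPC day 6 (difference of effects -1.42 ± 0.15, adjusted p = 7.07e-09). Kdm6a, among the smallest changes on day 3, had 0.359 untreated and 0.492 treated on day 6 (-0.61 ± 0.10, adjusted p = 0.000374). Taf1 had 0.168 and 0.321 on day 6, compared with 0.310 and 0.350 on day 3 (-0.99 ± 0.19, adjusted p = 0.00471). Of the 6 genes with the smallest change on day 3, Kdm6a and Taf1 were the 2 that passed this test. Their choice for a small change on day 3 itself favours a larger effect on day 6. Pola1, Enox2, Klhl13 and Shroom4 passed against both ES day 1 and NPC day 6, with an effect between those of the other days.

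Other ways of removing the pathway were set beside it on the same day. In PCGF35_SPOC, the degron line with SPEN mutated in its SPOC domain, the median change with dTAG-13 was 0.0665 (log2 odds 0.41), from a much higher untreated share. Its 2 replicates are separate clones that stood apart. In clone F10 the library median was 0.442 untreated and 0.557 treated, and the median change over genes was 0.0950. In clone F6 these were 0.462, 0.503 and 0.0515. Cast RNA of the 246 genes amounted to 3687 and 3420 fragments per M in F10, untreated and treated, and to 5037 and 4976 in F6. In uninduced ES cells it amounted to 4741 and 4826 in F10 and to 5288 and 5492 in F6. For 1 clone of this kind the study interprets an upward skew of NPC shares as selection for cells that lost the Cast X. The part of Cast RNA in the Dom share of F10 was not tested. The interaction of degradation and line, with the clones as replicates, passed in 0 X genes (0% of all genes tested by edgeR), and 67 had an unadjusted p under 0.05. It passed in 1 X gene without F10 and in 0 without F6. In DelPID, where the hnRNPK-binding region of Xist is deleted, the median difference to WT was 0.130 (log2 odds 1.13), and the library medians were 0.309 and 0.357, compared with 0.307 and 0.3333 for PCGF35_dTAG. The change with dTAG-13 was smaller than this difference in 10 X genes: Phka1, Aff2, Msn, Cd99l2, Hs6st2, Hdac8, Mtm1, Eda, Fam122b and Phf6. Over all genes 2.01% were smaller, and among autosomal genes 391 were larger and 239 smaller, so 2 separate lines also differed off the X. Phka1, a phosphorylase kinase subunit, had 0.0747 untreated and 0.141 treated, compared with 0.0369 in WT and 0.244 in DelPID (-2.18 ± 0.41, adjusted p = 0.000148). DelPID replicate 1 was shallow, and without it 11 genes passed.

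Total RNA of both alleles moved little by comparison. By edgeR 0 of 15654 genes changed (0% higher and 0% lower), and 873 had an unadjusted p under 0.05. DESeq2 called 7 genes higher and 17 lower. With the replicate block 34 genes were higher (0.217%) and 61 lower (0.39%). Over the 246 X genes the log2 fold change had a median of 0.26 and was above 0 in 206, compared with -0.0036 for all genes. Of the 34 genes higher with the block, 13 belonged to the 246 and 8 more to the rest of the X, and of the 61 lower genes 60 were autosomal. Under the block, Mtm1, a lipid phosphatase, rose from 39.9 and 46.3 CPM to 65.6 and 94.3 CPM (log2 fold change 0.89 ± 0.11, adjusted p = 0.0177). Klhl13 rose from 371 and 399 CPM to 503 and 597 CPM (0.53 ± 0.09, adjusted p = 0.0388), and Hprt from 67.8 and 70.5 CPM to 92.8 and 103.5 CPM (0.52 ± 0.08, adjusted p = 0.0311).

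Among genes with a mean of at least 5 CPM, the 5 higher and the 5 lower genes with the smallest unadjusted p all failed the test without the block (adjusted p = 0.538). Below that level, Prmt8, a gene named after its values were seen, had 6.33 and 5.26 CPM untreated and 1.62 and 1.10 CPM treated, and passed with the block (adjusted p = 0.0169). The higher ones were Gm6938, Prdm16, Cadm2, Wdfy4 and Mpp1. Prdm16, a zinc finger regulator, had 12.8 and 12.6 CPM untreated and 23.3 and 23.2 CPM treated, and Cadm2, a cell adhesion molecule, 36.1 and 40.4 CPM untreated and 60.1 and 111 CPM treated. The lower ones were Stxbp6, Ldb2, Efna5, Gpc6 and Cacnb2. Gpc6, a proteoglycan, had 600 and 695 CPM untreated and 316 and 279 CPM treated, and Efna5, an ephrin, 320 and 357 CPM untreated and 165 and 112.5 CPM treated. With the block Gm6938, Cadm2, Mpp1, Stxbp6, Ldb2, Efna5 and Gpc6 passed. In uninduced ES cells the same treatment gave log2 fold changes of -0.31 for Gpc6, -0.27 for Efna5, 0.06 for Prdm16 and 0.17 for Cadm2. On NPC day 6 it gave -0.75, -1.43, 1.08 and 0.86. The interaction with either day passed for 0 genes by edgeR. Prdm16 and Cacnb2 overlap another gene on their own strand, so their counts are uncertain.

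Genes that mark the cell state were read in the same counts. Naive pluripotency genes were at higher levels with dTAG-13: 12 of the 15 tested had both treated values above both untreated ones, where 17.4% of all genes did, and the median log2 fold change was 0.69. Their summed level was 901 and 792 CPM untreated and 1090 and 1315 CPM treated, compared with 3016 and 2399 CPM in uninduced ES cells. Nanog had 17.1 and 14.6 CPM untreated and 22.6 and 29.7 CPM treated, and Esrrb had 248 and 225 CPM untreated and 298 and 374 CPM treated. No gene of the list passed edgeR's test, 8 had an unadjusted p under 0.05, and Tbx3 alone passed with the block (4.81 and 4.63 CPM untreated, 10.8 and 12.9 CPM treated). Without treated replicate 2 the median was 0.38. Of 13 core and formative genes, 6 had both treated values below both untreated ones, where 24% of all genes did, and 0 above. Dnmt3b, a de novo DNA methyltransferase, had 886 and 921 CPM untreated and 712 and 491 CPM treated. Of 11 neural progenitor genes 6 were below and 1 above, with a median of -0.34. A larger share of naive cells and more naive RNA per cell cannot be told apart in these cultures. Of the listed naive genes, Nr0b1 lies on the X and belongs to the 246. The summed level of the naive genes was higher with dTAG-13 in both pairs of libraries, as the median Dom share was, and their part in the change of Dom share was not tested.

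**Figure D5:**
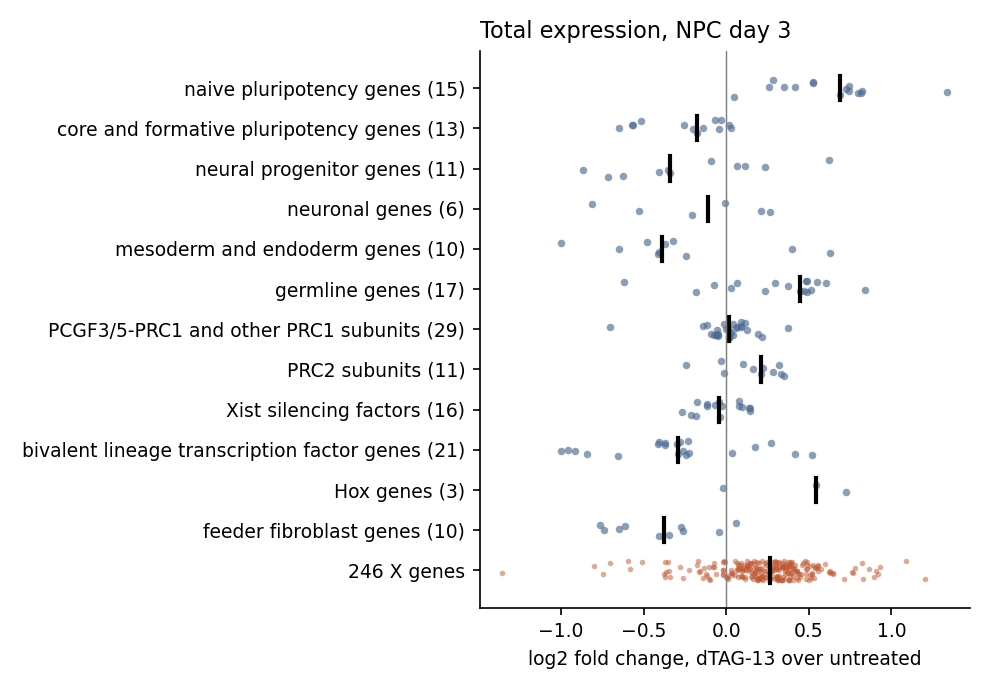
Log2 fold change of total expression, dTAG-13 over untreated on NPC day 3 (x axis), of each tested gene (points) of 12 lists and of the 246 X genes, with list medians as bars and the number of genes in parentheses. The naive pluripotency genes all lie above 0, with a median of 0.69, and the PRC1 subunits lie around 0.02.

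Genes of Polycomb subunits and silencing factors did not pass the test. Of 29 PRC1 subunit genes none passed the test and 0 had an unadjusted p under 0.05 by edgeR, with a median log2 fold change of 0.02. Rybp, a subunit of variant PRC1, had 488 and 494 CPM untreated and 499.7 and 529 CPM treated. Of 11 PRC2 genes none passed, and 7 had both treated values above both untreated ones, where 17.4% of all genes did, with a median of 0.21. Suz12, a core subunit, had 604 and 644 CPM untreated and 734 and 804 CPM treated (0.32 ± 0.12). Of the 16 genes listed as Xist silencing factors, Xist and Tsix included, none passed. Both treated values stood above both untreated ones in 3 and below in 7, where 17.4% and 24% of all genes did, with a median of -0.04. Spen had 158 and 155 CPM untreated and 184 and 158 CPM treated.

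Genes that Polycomb complexes are known to repress were read by list. Of 21 tested bivalent lineage transcription factor genes 1 had both treated values above both untreated ones and 5 below, where 17.4% and 24% of all genes did, with a median of -0.29. Only 3 of 39 Hox genes had enough counts to be tested, 4 could not be counted as given above, and the whole list summed to 1.41 to 3.38 CPM per library. Of 17 germline genes 10 were above and 1 below, beside the same shares of all genes, with a median of 0.45. Dazl, an RNA-binding protein of germ cells, had 8.52 and 7.64 CPM untreated and 13.3 and 15.3 CPM treated, and Smc1b, a meiotic cohesin subunit, 89.3 and 91.7 CPM untreated and 123 and 149 CPM treated. These 2 were the germline genes that passed with the block. Of 6 neuronal, 10 mesoderm and endoderm, 4 trophoblast and 13 ERK output genes none passed with or without the block, with medians of -0.11, -0.39, -0.48 and 0.03. Gata4 of the mesoderm and endoderm list had 5.97 and 28.8 CPM untreated and 5.34 and 20.9 CPM treated, a gap between replicates that both groups shared.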

How the data were processed

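Chromatin-associated RNA was sequenced after rRNA-depleted, stranded library preparation. As the labels and methods state, the authors took out rRNA reads with Bowtie2 2.3.2, aligned to N-masked mm10 with STAR 2.4.2a, split alleles with SNPsplit and counted with featureCounts on the annotated strand, over whole transcripts. The deposited files give raw counts per gene and library: total, Cast and Dom. A deposited table gives the allelic ratio, a fraction, of 246 X genes. It matched the counts to within 5e-16, and supplied only the gene set. Its 54 other columns were not used. An alignment bias toward 1 strain would move Dom shares. The autosomal Dom percent was 51.6 to 51.9 in the 4 libraries.

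Dom against Cast counts were tested with edgeR 4.0.16 (R 4.3.3; glmQLFit, a mean per library and a Dom term per group, mean of at least 10 allelic fragments), and total counts with filterByExpr and TMM, over the 16 PCGF35 libraries with 1 term per group, and over 58 libraries for PCGF35_SPOC and DelPID. p-values were adjusted by Benjamini-Hochberg over all genes at 0.05. limma 3.58.1 and DESeq2 1.42.0 were alternatives. A pseudocount of 0.5 was used for log2 odds. Scripts were tested on simulated data. Counting error alone did not account for the gaps between replicates (chi-square per degree of freedom 11.9 and 12.3). Treated and untreated cultures of a day were grown in parallel per the study. Deviations of expression from group means correlated by 0.478, 0.774, 0.311 and 0.444 between same-numbered libraries on ES days 0 and 1 and NPC days 3 and 6, and those of log2 odds by 0.269, 0.228, 0.189 and 0.0135, so a replicate block was run as the alternative fit. Wilson intervals cover counting error only, since fragments carry no molecular identifiers.

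Named genes were at most 12 with the largest and 6 with the smallest change in share (at least 50 and 200 allelic fragments), 5 per direction of total expression by unadjusted p, at a mean of at least 5 CPM, where none passed, and list members. Gene coordinates are those deposited with the counts, which the study made with an NCBI RefSeq annotation. The comparison, its genes and lists were chosen with earlier results of these data known. Results for some genes are not reported here.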

Additional observations from a re-analysis of the deposited data

Results flagged for a closer look

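The effect of dTAG-13 on Dom share differed between NPC day 3 and other days or lines, by edgeR interaction tests, in 56 X genes against uninduced ES cells, in 9 against ES day 1 and in 27 against NPC day 6. Over all 12666 genes, the effect on day 3 was larger than in uninduced ES cells in 0.466% and than on ES day 1 in 0.079%. It was smaller than on NPC day 6 in 0.221%. In 10 X genes it was smaller than the DelPID minus WT difference, where 2.01% of all genes were. Among the 12242 autosomal genes it was larger than that difference in 391 and smaller in 239. Against uninduced ES cells, the effect on day 3 exceeded that on day 0, in log2 odds, by 1.56 in Mtcp1, 4.54 in Gabra3, 1.58 in Upf3b, 1.82 in Zfp280c, 1.31 in Slc9a7, 1.08 in Tspan7, 1.64 in Zfp185 and 1.10 in Jade3. Against ES day 1 it exceeded the effect by 0.87 in Tspan7. Against NPC day 6 the difference in log2 odds was -1.96 in Zfp280c, -0.61 in Kdm6a and -0.99 in Taf1. In Zfp280c the mean shares were 0.103 untreated and 0.282 treated on day 3, and 0.0185 and 0.183 on NPC day 6. Its change in share was therefore not smaller on day 3 than on NPC day 6. Kdm6a and Taf1 were named for a small change on day 3 and the other genes for a large one. Naming by the day 3 change itself favours differences from other days, so these sizes are not independent of it. Gabra3 had a change of 3.89 on day 3 and day 0 shares of 0.711 untreated and 0.582 treated, so part of its 4.54 came from day 0. Groups of 2 libraries were too small to look for a library far from the others.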

How the results depend on the processing

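The median change in Dom share of 0.108 ranged from 0.100 to 0.120 when 1 library was left out, and was 0.109 over 261 X genes chosen by fragments and day 0 share, 0.108 over 187 genes with at least 50 allelic fragments and 0.107 over 108 with at least 200. On other scales it was 0.92 in log2 odds and 21.4 percentage points of a gene's own day 0 share. The 89 genes that rose became 112 with the replicate block, 112 with only the 4 day 3 libraries, 103 with no minimum of fragments, 59 with all 58 libraries, 27 with limma on shares, 24 with limma on log2 odds and 54 to 70 with 1 library left out. The cause of the lower counts was not tested, beyond the fewer samples where a library was left out, a fit in which the lone library is assumed to vary like the other groups. The 23 genes with a rise in Dom counts became 90 with the replicate block, 67 with 4 libraries, 12 with all 58 and 0 to 15 with 1 left out. The 0 X genes with a change in Cast counts became 1 with the block and 3 with 4 libraries. Over all 12666 genes the block called Cast counts higher in 26 and lower in 69. The 0 genes with a change in total expression became 95 with the block, 18 with 4 libraries and 24 with DESeq2. The interaction with ES day 1 passed in 27 X genes with the block instead of 9, and those of total expression in 4 genes against uninduced ES cells and 3 against NPC day 6 instead of 0. The interaction with PCGF35_SPOC passed in 1 X gene without its replicate 1 and in 0 without its replicate 2, instead of 0. The fits of total-expression interactions with the block, of DelPID without its shallow replicate, of PCGF35_SPOC and ES cells without 1 replicate and of the list medians were chosen after seeing the data. Of the edgeR alternatives for the 18 named genes' shares, 108 kept the side of the threshold and 18 lost the call, and the direction turned in 0. DESeq2 size factors or TMM from autosomal genes moved the median of all genes to -0.0029 and 0.0089. The X genes that passed had a median of 591 allelic fragments per library and the other tested ones 78.8.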
